A study of Rattus norvegicus with 2 samples.

Results

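Mitogen-activated protein (MAP) kinase pathway genes were examined in H9c2 cells, an established myoblast line from the embryonic rat heart. Control cells were kept in serum-free medium with 0.9 mM phosphate for 12 h, and treated cells in the same medium with 2.5 mM phosphate for 12 h. RNA of each culture was sequenced as 1 library, and the cells of both cultures had been grown with serum beforehand. With 1 library per phosphate level no difference below has a replicate check, none was tested, and a difference between the cultures cannot be told apart from a difference between these 2 libraries. Genes were taken by symbol. They are the protein-coding rat genes named Mapk, Map2k, Map3k, Map4k, Dusp or Spred, or Spry with a digit. Of 7803 entries with a usable gene identifier 41 met this rule, with values in both libraries, out of 87 such symbols in the gene table. The other 46, among them Mapk7, Mapk8, Map2k2, Map2k3, Map2k4 and the 5 Map4k genes, were not analysed here.

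MAP kinases stand at the end of kinase relays that carry signals from receptors and stress sensors to the nucleus. A MAP kinase kinase kinase (Map3k genes) activates a MAP kinase kinase (Map2k genes), which phosphorylates the MAP kinase on a threonine and a tyrosine. The ERK relay responds mainly to growth factors, the JNK and p38 relays to stress and cytokines, and the ERK5 relay to both. Dual-specificity phosphatases (Dusp genes) remove both phosphates. Several of them, with the Sprouty and Spred proteins that restrain RAS signalling, are induced by the pathway they inhibit, and in heart muscle these relays are known for their part in hypertrophic growth and stress responses.

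Among the phosphatases that act on MAP kinases, Dusp1, Dusp5 and Dusp10 were lower and Dusp6 higher in the high phosphate library. To show the control regions of these 4 genes, the 250 bases before each transcription start are printed 5′ to 3′ from RefSeq, build GRCr8. Capitals mark matches on either strand to the cyclic AMP response element (CRE) TGACGTCA, its short form TGACG, the AP-1 site TGANTCA, the core hypoxia element ACGTG, the ETS site CCGGAAG, the TATA box TATAAA and the CArG box bound by serum response factor.
Dusp1 (chr10:17184603-17184852, plus strand): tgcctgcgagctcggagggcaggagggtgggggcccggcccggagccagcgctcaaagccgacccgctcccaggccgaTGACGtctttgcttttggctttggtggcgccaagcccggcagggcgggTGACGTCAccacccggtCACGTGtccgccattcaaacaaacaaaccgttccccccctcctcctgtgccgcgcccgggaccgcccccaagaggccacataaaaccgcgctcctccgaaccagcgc
Dusp5 (chr1:262543524-262543773, plus strand): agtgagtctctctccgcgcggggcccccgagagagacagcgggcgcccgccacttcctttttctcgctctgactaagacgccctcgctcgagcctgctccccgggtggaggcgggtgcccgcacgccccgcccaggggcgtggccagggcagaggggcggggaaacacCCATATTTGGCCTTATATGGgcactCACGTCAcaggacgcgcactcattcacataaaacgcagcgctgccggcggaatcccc
Dusp10 (chr13:98145643-98145892, plus strand): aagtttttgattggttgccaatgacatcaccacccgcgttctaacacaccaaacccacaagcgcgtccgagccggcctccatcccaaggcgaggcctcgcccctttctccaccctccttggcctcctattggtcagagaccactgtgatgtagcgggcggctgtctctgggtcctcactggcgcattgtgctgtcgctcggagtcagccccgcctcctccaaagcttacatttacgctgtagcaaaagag
Dusp6 (chr7:35979354-35979603, plus strand): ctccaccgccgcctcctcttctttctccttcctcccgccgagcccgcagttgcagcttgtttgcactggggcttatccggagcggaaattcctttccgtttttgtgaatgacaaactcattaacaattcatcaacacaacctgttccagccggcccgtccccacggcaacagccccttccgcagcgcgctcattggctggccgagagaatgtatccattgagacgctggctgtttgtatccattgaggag
The Dusp1 window held a full CRE that began 124 bases before the start, a separate short form 172 bases before it, and the hypoxia core on both strands as CACGTG. The Dusp5 window held 2 adjacent CArG boxes, beginning 82 and 72 bases before the start, followed by a short form of the CRE that overlapped a hypoxia core. None of these letters was found in the Dusp10 or Dusp6 window, which says nothing of sites elsewhere or of the factors. Of 19005 protein-coding promoter windows of this length, 2.03% held the CRE, 21.1% its short form, 17.6% the hypoxia core and 1.52% a CArG box. Over the 19 genes of the pathway that averaged 1 FPKM or more and had a window in the table, the CRE was found in 1, the short form, which lies within the CRE, in 6, the hypoxia core in 5, the CArG box in 1 and the ETS site in 1 (9.52% of all windows). The AP-1 site (5.82% of all windows) and the TATA box (12.3%) were found in none. The GC box GGGCGG, not capitalised above, was found in 18 of the 19 and in 40.3% of all windows. For every motif here the 2 sets are unlike. The 19 genes were kept for their expression level, while the windows of all protein-coding genes were taken whether expressed or not. These shares therefore do not show a trait of the pathway.

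The authors deposited FPKM, in which the sequenced fragments of a gene are divided by transcript length and by library size. Because FPKM is per length, levels are set side by side between genes here. Biases of single genes from mapping or annotation were not tested. The difference between libraries is the log2 ratio of high phosphate FPKM + 1 to control FPKM + 1, which understates differences of low values. Genes that averaged 1 FPKM or more across both libraries are called measured. Of the 41 genes 21 were measured. The other 20 had lower listed values and are called low on that ground alone, 4 of them listed at 0 in both libraries. A listed 0 may be a failed estimate, since Cdc42, a GTPase gene that most cells express, was listed at 0.19 and 0 FPKM. Read numbers per gene are unknown, so no counting error can be given. Listed FPKM summed to 307622 for control cells and 346857 for high phosphate. Rescaling to the same sum moves the median log2 ratio of all 4366 measured genes from 0.0042 to -0.15, so small positive values below depend on the scaling.

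Of cell type markers, the muscle filament gene Des was listed at 128.5 FPKM in control cells and 153.3 FPKM in high phosphate, and the myogenic factor Myod1 at 6.11 and 1.59 FPKM. Less abundant among the 5 listed muscle markers were Acta1 (1.57 and 1.64 FPKM), Chrna1 (0.45 and 0.21 FPKM) and Myog (0.13 and 0.06 FPKM). Des made up most of the muscle sum of 136.76 and 156.8 FPKM. The cardiomyocyte markers Myh7 and Ryr2 were listed at 0 in both libraries and Nppa at 0.21 and 0.23 FPKM. All 4 listed endothelial markers summed to 0.08 and 0.36 FPKM, and the 3 listed leukocyte markers to 1.06 and 1.47 FPKM with Ptprc at 0. The 6 listed fibroblast markers summed to 3533 and 3583 FPKM with Pdgfra at 0. S100a4 made up most of this sum with 3291 and 3249 FPKM, while Thy1 (231.9 and 316.6 FPKM), Dcn, Lum and Col1a1 were higher in high phosphate. The 4 smooth muscle markers summed to 2520 and 3839 FPKM, with Myh11 at 0.6 and 0.61 FPKM. The part of these shifts in the results was not tested. In such bulk RNA, fewer cells of a type and less RNA per cell cannot be told apart.

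Most genes of the pathway were less than 1.5-fold apart between the libraries. At least 2-fold higher in high phosphate was 1 of the 21 measured genes (Map2k5), where 1.76% of all measured genes passed the same threshold, and 0 were at least 2-fold lower (0.87% of all measured genes). At 1.5-fold, 2 were higher (Map2k5 and Dusp6, against 7.21% of all genes) and 3 lower (Dusp5, Dusp10 and Spred3, against 3.37%). After rescaling to the same sum the 1.5-fold split was 1 higher and 6 lower, where 4.56% of all measured genes were higher and 6.76% lower. As deposited, 10 had a log2 ratio above 0 and 11 below, against 50.5% and 49.4% of all measured genes, and the median was -0.10. After rescaling to the same sum 5 lay above and 16 below, against 32.2% and 67.8% of all measured genes.

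**Figure D1:**
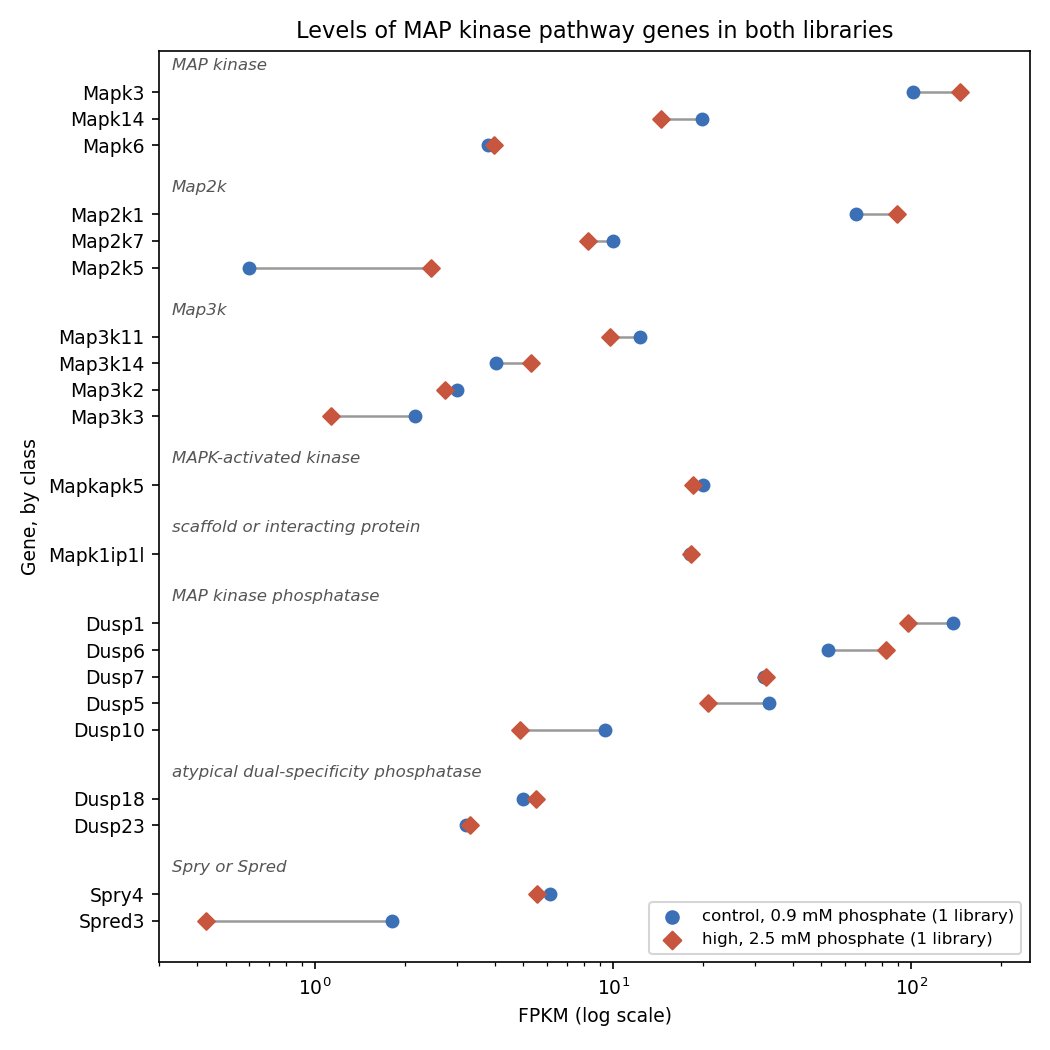
FPKM on a log axis for each of the 21 measured genes, grouped by class, with circles for the control library and diamonds for the high phosphate library. Mapk3 and Map2k1 lie to the right of their controls, Dusp1, Dusp5 and Dusp10 lie to the left of their controls, and the widest gaps, of Map2k5 and Spred3, have 1 value under 1 FPKM.

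Among the MAP kinases themselves, Mapk3, which encodes ERK1, was listed at 101.7 FPKM in control cells and 146.05 FPKM in high phosphate, a log2 ratio of 0.52. It was the most abundant kinase of the relay and made up 45.3% and 51.2% of the FPKM summed over the 17 listed MAP kinases, Map2k and Map3k genes. Mapk14, which encodes p38 alpha, went the other way, with 19.83 FPKM in control cells and 14.49 FPKM in high phosphate, a log2 ratio of -0.43. Mapk6, which encodes the atypical kinase ERK3, was nearly level at 3.8 and 3.97 FPKM. As deposited, 2 of 3 measured MAP kinases were higher, beside 50.5% of all measured genes. The class median of 0.05 turned to -0.09 after rescaling to the same sum. It turned to -0.02 for the sum without the 100 most abundant entries. The other 4 listed MAP kinases were low: Mapk9, which encodes JNK2, was listed at 0.43 and 0.5 FPKM, Mapk10 at 0.01 and 0, Mapk13 at 0.04 and 0.02, and Mapk15 at 0 in both.

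One tier up, Map2k1, which encodes the ERK activator MEK1, was listed at 65.47 FPKM in control cells and 89.45 FPKM in high phosphate, a log2 ratio of 0.44. Its level relative to Mapk3 was nearly the same in both libraries, as the ratio of Mapk3 to Map2k1 FPKM was 1.55 and 1.63. Map2k7, which encodes the JNK activator MKK7, was lower, with 10.02 and 8.24 FPKM and a log2 ratio of -0.25. Map2k5, which encodes the ERK5 activator MEK5, was listed at 0.6 FPKM in control cells and 2.45 FPKM in high phosphate. Its log2 ratio of 1.11 was the highest of the 21 genes, but 4.81% of genes in the same of 5 equal bins of mean FPKM were as far from 0 in either direction, and it passed the filter on low values only through the high phosphate library. Map2k6, which encodes the p38 activator MKK6, was low at 0.09 and 0.03 FPKM. The class median, over 3 measured genes of 4 listed, was 0.44, and it was 0.10 over the 2 genes of at least 5 FPKM, which leave out Map2k5.

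Of the 4 measured genes of the Map3k tier 3 were lower and 1 higher, with a median log2 ratio of -0.20. The most abundant was Map3k11, which encodes the mixed-lineage kinase MLK3 that feeds JNK, with 12.32 FPKM in control cells and 9.79 FPKM in high phosphate and a log2 ratio of -0.30. Map3k3, which encodes the kinase MEKK3 upstream of MEK5, was listed at 2.17 and 1.13 FPKM, a log2 ratio of -0.57. Its relative Map3k2, which encodes MEKK2, had 3.0 and 2.72 FPKM. The exception was Map3k14, which encodes the NF-kB-inducing kinase NIK and acts mainly outside the MAP kinase relays, with 4.04 and 5.3 FPKM. Map3k8 and Map3k9 were low at 0.81 and 0.85 FPKM and at 0 and 0.5 FPKM. The genes of the ERK5 relay did not share a direction: Map2k5 was higher while Map3k2 and Map3k3 were lower, and all 3 were under 4 FPKM in both libraries.

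The 2 measured downstream and accessory genes were close to level. Mapkapk5, which encodes a kinase activated through ERK3 and p38, was listed at 19.97 FPKM in control cells and 18.51 FPKM in high phosphate. Mapk1ip1l, which shares the symbol prefix but encodes no kinase, had 18.1 and 18.18 FPKM. Mapkapk3 was listed at 0 in both libraries, Mapk1ip1 at 0.53 and 0.64 FPKM and Map3k7cl, which encodes a protein without a kinase domain, at 0.15 and 0.83 FPKM, a log2 ratio of 0.67 for a gene under the filter.

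Phosphatases differed in both directions. Of the 7 listed classical MAP kinase phosphatases 5 were measured, and their median log2 ratio was -0.49, with 3 lower, 1 higher and 1 level. Dusp1, a nuclear phosphatase that prefers p38 and JNK, was the most abundant, with 137.79 FPKM in control cells and 97.61 FPKM in high phosphate, a log2 ratio of -0.49. Dusp10, which also acts on p38 and JNK, was listed at 9.35 and 4.87 FPKM, a log2 ratio of -0.82. Both phosphatases that favour the stress kinases were lower.

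The phosphatases that favour ERK were split. Dusp5, which is nuclear, was listed at 33.46 FPKM in control cells and 20.87 FPKM in high phosphate, a log2 ratio of -0.66. Dusp6, which is cytoplasmic, was listed at 52.48 and 82.08 FPKM, a log2 ratio of 0.64. Dusp7, the other cytoplasmic one, had 32.15 and 32.47 FPKM, and its sign turned under rescaling to the same sum (log2 ratio -0.15). Dusp7 overlaps Rpl29, a ribosomal protein gene on the same strand, in GRCr8, and whether reads of one could be counted for the other was not tested. The same holds for 3 other measured genes that overlap another protein-coding gene there: Dusp18 with Slc35e4, and Map3k2 and Spred3 with unnamed loci on the opposite strand. Dusp4 and Dusp9 were low, at 0.07 and 0 FPKM and at 0 and 0.02 FPKM.

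Set against genes of like abundance, 3 of the 21 measured genes lay below the central 95% of log2 ratios in their bin of mean FPKM, and these were Dusp1, Dusp5 and Dusp10. By construction 2.52% of all measured genes lie below that range and 2.52% above it, where 0 of the 21 lay. The lower bounds were -0.42 for the bin that holds Dusp1, -0.49 for that of Dusp5 and -0.77 for that of Dusp10, so each was only slightly beyond its bound. These ranges reach further above 0 than below it: by distance from 0 in either direction, 9.61% of genes in the bin were as far as Dusp1, 3.90% as far as Dusp5 and 5.96% as far as Dusp10, beside 5.84% for Dusp6 and 9.04% for Mapk3. Dusp6 was inside, under an upper bound of 0.79. The same 3 genes were below the range under all 4 rescalings of the libraries. This is no check, because the bounds were recomputed after each rescaling and move with the genes. With both other pseudocounts the same 3 genes and Spred3 were below the range.

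**Figure D2:**
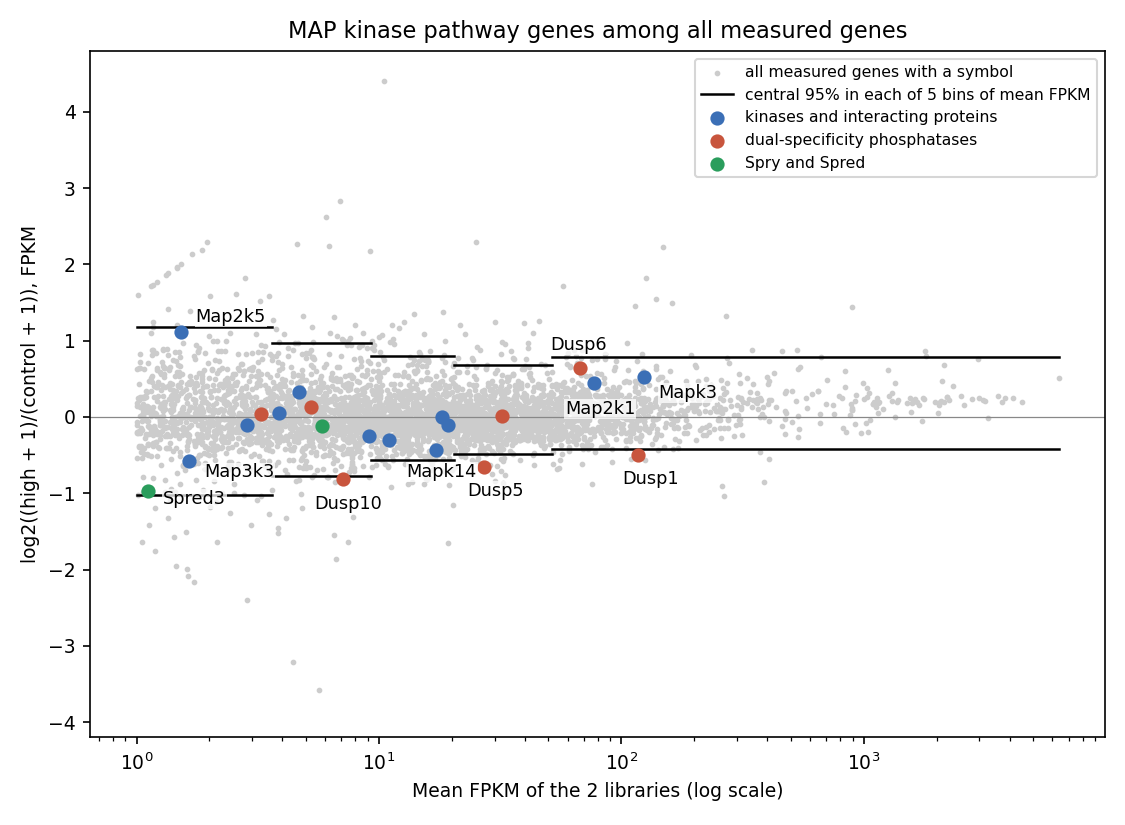
Log2 ratio of high phosphate to control (FPKM + 1) against mean FPKM on a log axis, with all measured genes that have a symbol in grey, pathway genes coloured by kind, and black lines for the central 95% in each of 5 equal bins of mean FPKM. Dusp1, Dusp5 and Dusp10 lie just under the lower line, and every kinase lies between the lines.

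The phosphatase make-up can be read within each library, where no scaling between libraries enters. The 7 listed MAP kinase phosphatases summed to 265.3 FPKM in control cells and 237.92 FPKM in high phosphate. Dusp1 held 51.9% of the sum in the control and 41.0% in high phosphate, and Dusp6 19.8% and 34.5%. The share of Dusp5 was 12.6% and 8.77%, that of Dusp10 3.52% and 2.05%, and that of Dusp7 12.1% and 13.6%. The ratio of Dusp6 to Dusp5 FPKM, the cytoplasmic to the nuclear ERK phosphatase, was 1.57 in the control and 3.93 in high phosphate. The ratio of Dusp6 to Dusp1 was 0.381 and 0.841, whereas the ratio of Dusp6 to Mapk3 was close to level at 0.516 and 0.562. These pairs were chosen after the values were seen.

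**Figure D3:**
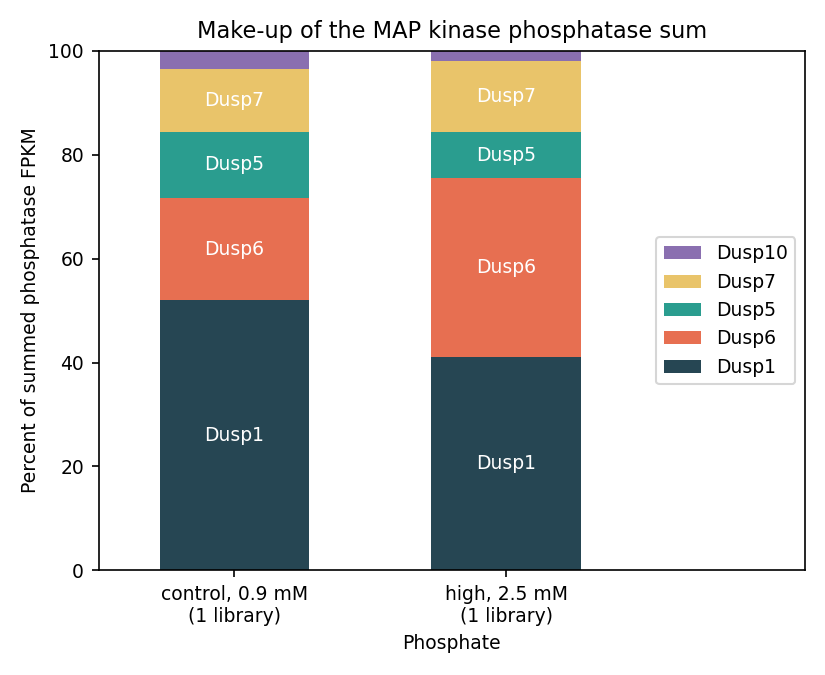
Percent of the summed FPKM of the listed MAP kinase phosphatases held by each gene, 1 stacked bar per library. The Dusp6 segment grows from 19.8% to 34.5% while those of Dusp1, Dusp5 and Dusp10 shrink. Dusp4 and Dusp9, each under 1%, are not drawn.

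Atypical dual-specificity phosphatases, which lack the docking domain for MAP kinases, were mostly low. Of 9 listed genes 2 were measured and both were nearly level: Dusp18 with 4.97 FPKM in control cells and 5.52 FPKM in high phosphate, and Dusp23 with 3.2 and 3.3 FPKM. Dusp18 turned sign under rescaling to the same sum (log2 ratio -0.02). Dusp14 lay just under the filter with 1.05 and 0.79 FPKM. Dusp13b, Dusp14l1, Dusp15, Dusp26 and Dusp28 were each under 0.5 FPKM in both libraries, and Dusp29 was listed at 0 in both.

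Of the Sprouty and Spred inhibitors of RAS signalling, Spry4 was listed at 6.13 FPKM in control cells and 5.56 FPKM in high phosphate. Spred3 had 1.81 and 0.43 FPKM, a log2 ratio of -0.97 that was the lowest of the 21 genes. With a mean of 1.12 FPKM it lay just inside the filter and passed it only through the control library. It was more than 2-fold lower with a pseudocount of 0.5 (log2 ratio -1.31) and after rescaling to the same sum (-1.06). Spry1 was listed at 0 in both libraries.

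When the kinases, phosphatases and Sprouty and Spred genes were sorted by the relay they are best known for, a grouping made after the values were seen, the 4 measured genes of the JNK and p38 relays (Mapk14, Map2k7, Map3k11 and Dusp10) were all lower, with log2 ratios from -0.82 to -0.25. That they stayed lower under all 4 rescalings is no check. Only the rescaling to the same upper quartile raises ratios (log2 factor of high over control -0.022), too little to turn these signs. Beside these 4 genes, 49.4% of all measured genes were below 0 on deposited values, and 67.8% once both sums were made equal. The 10 listed genes of the JNK and p38 group summed to 52.1 FPKM in control cells and 38.4 FPKM in high phosphate. Dusp1, which can also act on ERK, is not in this group, and with it 5 of 5 measured genes were lower and the sums were 189.9 and 136.1 FPKM. In the ERK group 4 of 7 measured genes were higher, with a median of 0.01 that was -0.15 after rescaling to the same sum. This group holds Spry4 and Spred3, both lower. Among its kinases and phosphatases alone 4 of 5 were higher, with a median of 0.44 (0.27 rescaled to the same sum). They include Dusp7, nearly level at 32.15 and 32.47 FPKM, whose sign turned under that rescaling. The share of all measured genes above 0 was 50.5% as deposited and 32.2% rescaled to the same sum. The activator and the kinase, Map2k1 and Mapk3, were among the higher genes under all 4 rescalings. Within each library the ratio of Mapk3 to Mapk14 FPKM was 5.13 in the control and 10.1 in high phosphate, and the ratio of Map2k1 to Map2k7 was 6.53 and 10.9. The ratio of Dusp1 to its substrate kinase Mapk14 was close to level at 6.95 and 6.74.

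Other genes of the pathway came from 6 lists written from textbook knowledge. The counts below stand beside 50.5% of all measured genes above 0 and 49.4% below as deposited. With equal sums the shares were 32.2% and 67.8%. Of 5 measured receptor tyrosine kinases 4 were lower and 1 higher, with a median log2 ratio of -0.28 beside 0.0042 for all measured genes. The exception was the insulin-like growth factor receptor Igf1r with 0.96 and 2.67 FPKM, while the fibroblast growth factor receptor Fgfr3 had 2.29 and 1.27 FPKM and the hepatocyte growth factor receptor Met 14.68 and 11.5 FPKM. The platelet-derived growth factor receptor Pdgfrb was nearly level at 24.72 and 24.44 FPKM, and its sign turned under rescaling to the same upper quartile.

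Between receptors and MAP kinases, 5 of 13 measured genes of the RAS to RAF step were higher and 7 lower (median -0.03). With equal sums 3 were higher, beside 32.2% of all measured genes. The scaffold subunit Lamtor3, which ties MEK1 and ERK1 to late endosomes, had 7.13 and 4.03 FPKM, and the phosphatase Ptpn11 (SHP2), which promotes RAS activation, 10.73 and 6.52 FPKM. At the other end the RAS-related GTPase Rras had 121 and 174.15 FPKM and the adaptor Shc1 33.21 and 43.94 FPKM. Among RAS GTPase activators and inhibitors other than the Dusp, Spry and Spred genes, 11 of 14 measured genes were higher as deposited (median 0.25). Once both sums were made equal 9 were higher (median 0.11). The shares of all measured genes above 0 were 50.5% and 32.2%. The ubiquitin ligase Cblb, which marks receptors for degradation, had 0.89 and 2.63 FPKM and the pseudokinase Trib2 11.2 and 17.5 FPKM, against the phosphatases Ppm1a with 35.14 and 32.4 FPKM and Ppm1d with 5.76 and 5.42 FPKM.

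Stress inputs to JNK and p38 centred near 0, with 5 of 13 higher and 8 lower (median -0.03), and 3 higher with equal sums. The list was not sorted into activators and inhibitors and holds Gstp1, which can inhibit JNK. Its counts therefore give no direction of the input. Of all measured genes 50.5% were above 0 as deposited and 32.2% with equal sums. The 1 gene of this list at least 2-fold apart was the kinase Taok2. It was listed at 0.01 FPKM in control cells and 2.92 FPKM in high phosphate, where a value near 0 can be a failed estimate. The p21-activated kinase Pak1 had 9.36 and 13.0 FPKM. The receptor-associated kinase Irak1 had 9.65 and 5.46 FPKM and the receptor adaptor Myd88 14.24 and 11.22 FPKM. Of 5 listed effector kinases 4 were measured, all higher on deposited values, but 2 of 4 were lower after rescaling to the same sum. The shares of all measured genes were 50.5% above 0 as deposited and 67.8% below 0 after that rescaling. Lowest by log2 ratio were Prkaa1, with 11.04 and 11.12 FPKM, and Rps6ka4 (MSK2), with 49.12 and 53.06 FPKM. Highest were Eef2k with 25.86 and 31.37 FPKM and Rps6ka5 (MSK1) with 0.75 and 1.68 FPKM. Prkaa1, though on this list, encodes a subunit of the energy sensor AMPK and is not a dedicated effector of ERK or p38. Rps6ka5, like Igf1r, Cblb and Taok2, passed the filter on low values only through the high phosphate library.

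Transcription factors and early response genes under MAP kinases went both ways, with 11 of 24 measured genes higher and 13 lower (median -0.04). Of all measured genes 50.5% were above 0 and 49.4% below. The AP-1 subunit Fos had 2.16 and 3.85 FPKM and the mRNA decay factor Zfp36l1 11.3 and 16.03 FPKM. The Kruppel-like factor Klf2, a target of ERK5 signalling in endothelial cells, had 53.37 and 34.27 FPKM and the stress factor Atf3 1.78 and 1.04 FPKM. At 1.5-fold, 1 of the 24 was higher and 1 lower, beside 7.21% and 3.37% of all measured genes.

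**Figure D4:**
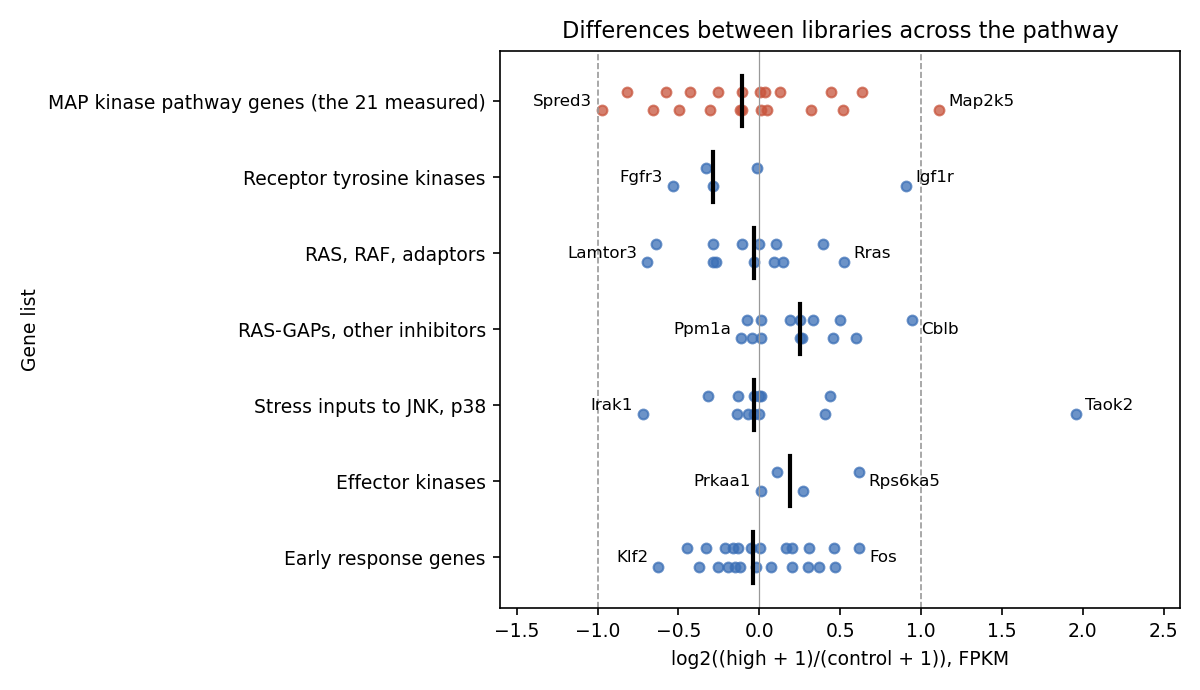
Log2 ratio of high phosphate to control (FPKM + 1) for the 21 measured MAP kinase pathway genes and for the measured genes of 6 lists of other pathway genes, 1 point per gene. Black bars are medians, from -0.28 for receptor tyrosine kinases to 0.25 for RAS-GAPs and other inhibitors, and dashed lines mark 2-fold; the lowest and highest gene of each row are named.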

How the data were processed

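RNA was sequenced from 1 control and 1 high phosphate library of H9c2 cells. The authors deposited FPKM per gene, per the file headers, with 2 decimals. Tools named in the submitters' processing notes are Cufflinks 2.2.1, Cuffdiff, TopHat2 2.1.1 and bcl2fastq, with the build Rnor_6.0. The sources used here do not give the annotation, strand setting, handling of multi-mapping reads or scaling between libraries. Of 8039 entries 236 had no usable identifier (2.94% of entries, with 8.20% and 8.56% of the FPKM) and were left out. Symbols came from an NCBI table for GRCr8, which matched 7746 of 7803 identifiers.

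The log2 ratio used a pseudocount of 1 FPKM and genes that averaged 1 FPKM or more. There was no test. Genes were also placed within 5 equal bins of mean FPKM. Values are given for genes of the pathway that averaged 5 FPKM or more or had a log2 ratio of at least 0.4 in size, for the most abundant of each class, for low genes above 0.5 FPKM and for the 2 genes at each end of the other pathway lists. Further values were added after they were seen. Members and lists were chosen with earlier results of these data known. Alternatives were other pseudocounts, 4 rescalings, other filters, a 3-fold threshold and the set without interacting proteins. The calculations were tested on simulated data. Python 3.11.15, numpy 2.4.6, pandas 2.3.3 and matplotlib 3.10.9 were used.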

Additional observations from a re-analysis of the deposited data

How the results depend on the processing

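Of 17 measured pathway genes named by rule, 14 kept the sign of their log2 ratio under 4 rescalings, while Dusp7, Dusp18 and Mapk1ip1l did not. The 2 other pseudocounts cannot turn a sign. Only the rescaling to the same upper quartile raises ratios (log2 factor of high over control -0.022). Genes clearly below 0 therefore could not turn, and their kept sign is no check. The number at least 2-fold lower was 0 as deposited and 1 (Spred3) with pseudocounts of 0.1 or 0.5, after rescaling to the same sum and to that without the 100 most abundant entries. After rescaling to the same sum, the number at least 1.5-fold higher was 1 and lower 6, with 5 log2 ratios above 0; this rescaling shifts all genes, of which 4.56% were then higher and 6.76% lower at 1.5-fold and 32.2% above 0. For the sum without the most abundant entries 1 was at least 1.5-fold higher and 6 log2 ratios were above 0. Without the filter on low values, 4 of 41 genes were at least 1.5-fold higher, 19 lay above 0 and 18 below, and the phosphatase median was -0.10, since low genes have log2 ratios near 0. Among the 14 genes of at least 5 FPKM, 0 were 2-fold and 1 was 1.5-fold higher, 6 lay above 0, and the Map2k median was 0.10 over 2 genes. Among the 10 genes of at least 10 FPKM, 0 were 2-fold higher, 1 was 1.5-fold higher, 1 was 1.5-fold lower, and 5 lay above and 5 below 0. At 3-fold, 0 were higher. Except for equal sums, the counts above stand without the shares of all genes under the same setting. They therefore show no trait of the pathway. With pseudocounts of 0.1 and 0.5, 4 genes lay below the central range of their bin. No paired analysis was possible because each phosphate level had 1 library. The depth behind each value is unknown, so counting error could not be set against any of these differences.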
